A study of Homo sapiens with 15 samples.

Results

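This report describes how H3K27ac and H3K4me3 compared within the parental MDA-MB-231 cells (Par), a human breast cancer cell line of the claudin-low, triple-negative type. An H3K27ac peak was paired with the H3K4me3 peak with which it shared the most bases, at least 1 bp. This gave 19207 pairs, 30.9% of the 62195 H3K27ac peaks, and the pairs held 18973 of the 22572 H3K4me3 peaks. The Par cells were unselected and untreated beyond growth for 3 days in 10% FBS, and fixation in 1% formaldehyde took 10 min per the labels. Of the 15 samples, 12 were ChIP-seq libraries, with 2 biological replicates per mark in Par and in the sub-populations LM2 and BrM2, which had been selected in mice from Par for spread to lung and brain. The 4 Par libraries gave the values below, and the input samples were not used here. All 3 lines share 1 origin, so the values describe 1 cell line.

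H3K4me3 is written around transcription starts by the SET1 and MLL methyltransferase complexes, whose CXXC-domain subunits bind unmethylated CpG, so it is the standard mark of CpG-rich promoters. H3K27ac is written by the acetyltransferases p300 and CBP, is read by bromodomain proteins and marks active promoters and active enhancers alike. A promoter with both marks is usually taken as active, and a distal site with H3K27ac and little H3K4me3 as an enhancer.

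The Par libraries held 3489607 and 6714331 counted reads in H3K4me3 peaks (replicates 1 and 2) and 4384701 and 3831371 in H3K27ac peaks. Levels are CPM per kb, that is, counts scaled to the reads in the peaks of that library and to the length of the peak in kb. Across the tested pairs, the log2 levels of the replicates correlated with r = 0.945 for H3K4me3 and r = 0.786 for H3K27ac. Between replicates, the chi-square per degree of freedom was 11.6 for H3K4me3 and 6.91 for H3K27ac, so both marks varied by more than counting error. A pair of both marks stood at the start of 64.8% of all protein-coding genes. It stood at 22 of 24 genes of a claudin-low or mesenchymal list, among them VIM, CD44, AXL and ZEB1. That list also held KRT8 and KRT18, which are keratins of epithelium and not mesenchymal markers. Of the leukocyte genes, 9 of 10 had a peak of neither mark. Of 19 luminal genes 12 had a pair, and these included the junction genes CLDN3, CLDN4, CLDN7, EPCAM and CDH1, whose low expression defines the claudin-low type.

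The sequences that carry the main contrast are 6 promoters, 3 with H3K27ac in excess and 3 with H3K4me3 in excess, each shown from 250 bases before to 50 bases after the start of the canonical transcript, 5′ to 3′ on the strand of the gene (GRCh37). They are printed to show CpG, in capitals, in promoters of both kinds. KISS1 (chr1:204165570-204165869, minus strand), SPARC (chr5:151066427-151066726, minus strand) and TMEM244 (chr6:130182411-130182710, minus strand) had H3K27ac in excess and held 9, 11 and 8 CpG. LY6K, whose difference was larger than that at TMEM244, is not shown. The observed to expected CpG ratio of these windows was 0.323 for KISS1, 0.401 for SPARC and 0.649 for TMEM244, whose G+C content was 41.3%, so TMEM244 was above the 0.422 median of its class.
KISS1: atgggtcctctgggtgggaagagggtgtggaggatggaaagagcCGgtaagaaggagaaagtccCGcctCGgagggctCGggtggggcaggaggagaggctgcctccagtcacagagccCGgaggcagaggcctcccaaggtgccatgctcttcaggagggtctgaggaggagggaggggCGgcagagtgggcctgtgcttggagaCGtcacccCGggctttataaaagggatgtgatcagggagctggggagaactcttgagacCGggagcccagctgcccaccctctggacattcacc
SPARC: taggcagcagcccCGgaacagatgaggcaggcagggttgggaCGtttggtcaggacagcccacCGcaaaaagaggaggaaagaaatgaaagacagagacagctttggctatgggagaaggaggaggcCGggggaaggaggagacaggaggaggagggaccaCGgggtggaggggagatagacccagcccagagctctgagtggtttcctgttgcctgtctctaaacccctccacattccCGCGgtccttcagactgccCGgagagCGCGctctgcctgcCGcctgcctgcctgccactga
TMEM244: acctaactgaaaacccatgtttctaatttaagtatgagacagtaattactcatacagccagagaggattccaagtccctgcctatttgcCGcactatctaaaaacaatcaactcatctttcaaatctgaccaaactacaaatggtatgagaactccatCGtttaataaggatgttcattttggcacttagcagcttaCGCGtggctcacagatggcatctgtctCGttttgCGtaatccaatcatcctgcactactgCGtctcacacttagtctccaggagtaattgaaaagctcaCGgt

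EPB41L4A (chr5:111754925-111755224, minus strand), PGS1 (chr17:76374480-76374779, plus strand) and HEY2 (chr6:126070528-126070827, plus strand) had H3K4me3 in excess and held 35, 37 and 43 CpG. The median CpG ratio of such windows was 0.860 with H3K4me3 in excess and 0.868 at paired genes with neither in excess. CpG-rich windows are thus not particular to an excess of H3K4me3. The KISS1 window alone among the 6 held the letters TATAAA in the 50 bases before its start.
EPB41L4A: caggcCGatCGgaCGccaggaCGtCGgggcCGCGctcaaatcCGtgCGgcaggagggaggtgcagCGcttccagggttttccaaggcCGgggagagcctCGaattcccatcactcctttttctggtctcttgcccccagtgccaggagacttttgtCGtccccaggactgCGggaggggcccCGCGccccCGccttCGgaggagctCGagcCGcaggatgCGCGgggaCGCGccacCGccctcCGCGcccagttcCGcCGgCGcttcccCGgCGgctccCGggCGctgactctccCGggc
PGS1: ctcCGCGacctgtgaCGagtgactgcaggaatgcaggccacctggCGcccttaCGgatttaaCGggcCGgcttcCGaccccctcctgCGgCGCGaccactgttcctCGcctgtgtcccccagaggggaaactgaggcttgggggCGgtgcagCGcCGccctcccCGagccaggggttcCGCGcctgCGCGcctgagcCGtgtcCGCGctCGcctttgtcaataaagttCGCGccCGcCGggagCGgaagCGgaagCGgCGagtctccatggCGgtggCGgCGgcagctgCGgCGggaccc
HEY2: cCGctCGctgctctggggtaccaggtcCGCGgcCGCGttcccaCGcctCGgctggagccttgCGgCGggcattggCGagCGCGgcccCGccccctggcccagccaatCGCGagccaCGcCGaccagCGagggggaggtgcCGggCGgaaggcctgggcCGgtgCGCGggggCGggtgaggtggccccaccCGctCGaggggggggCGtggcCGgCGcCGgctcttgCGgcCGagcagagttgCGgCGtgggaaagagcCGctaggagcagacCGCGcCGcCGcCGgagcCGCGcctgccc

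The marks were distributed differently around genes. Promoter peaks were those with an edge 2 kb or less from a protein-coding start, and 53.2% of H3K4me3 peaks (95% Wilson interval 52.6 to 53.9, n = 22572) and 19.6% of H3K27ac peaks (19.3 to 19.96, n = 62195) did so. These intervals cover counting error only. Most H3K27ac peaks were distal, with 43.4% between 10 and 100 kb from a start and 25.8% farther than 100 kb. The peak sets are those called on the merged libraries of the lines, so a peak need not be strong in Par.

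The level of H3K4me3 fell away from starts far more than that of H3K27ac. H3K4me3 peaks that contained a start had a median level of 24.1 CPM per kb in replicate 1 and 27.7 in replicate 2, against 2.45 and 4.88 for those between 10 and 100 kb away. H3K27ac peaks that contained a start had medians of 8.88 and 9.55, and those between 10 and 100 kb away 4.40 and 4.29. Both replicates of each mark thus showed the fall with distance. The H3K4me3 libraries differed more from each other at distal peaks than at starts, where replicate 2 was higher by a small margin.

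**Figure D1:**
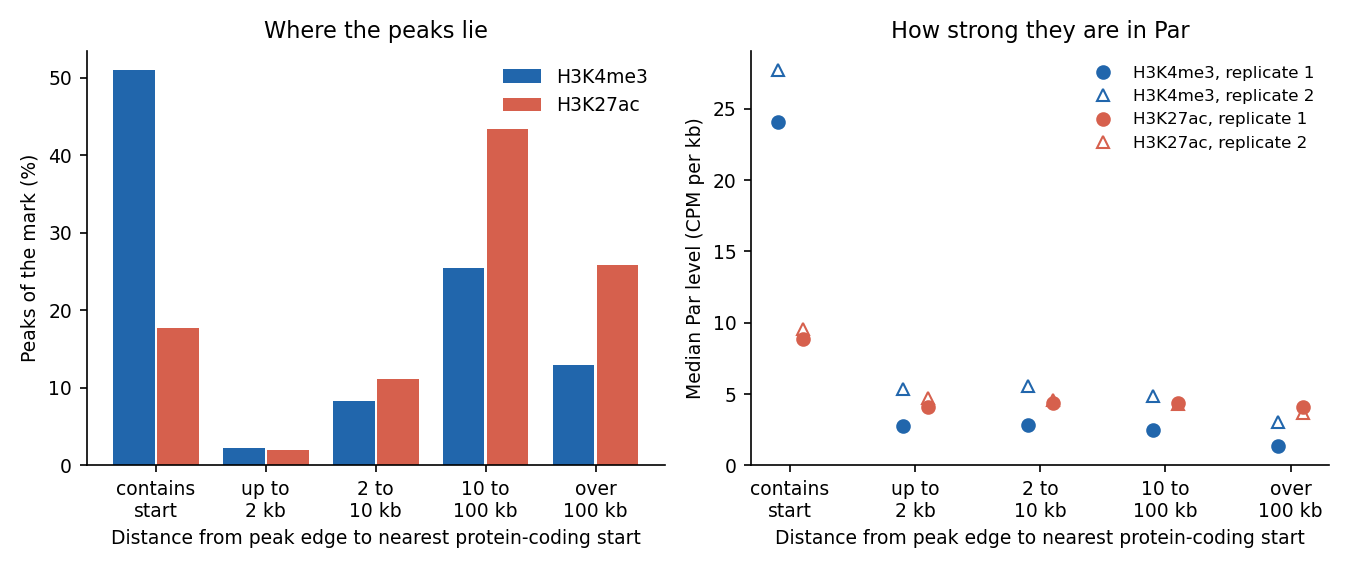
Peaks of H3K4me3 (blue) and H3K27ac (red) by the distance from the peak edge to the nearest protein-coding start. The left plot gives the share of the peaks of each mark in percent, and the right plot the median Par level in CPM per kb in replicates 1 (filled circles) and 2 (open triangles). H3K4me3 peaks were concentrated on starts, where 50.9% of them lay, and H3K27ac peaks at 10 to 100 kb.

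Presence of the other mark also depended on position. Of the H3K27ac peaks that contained a start, 98.1% overlapped an H3K4me3 peak, and of those farther than 100 kb, 11.96% did. In the opposite direction, 96.6% of H3K4me3 peaks that contained a start and 68.8% of those farther than 100 kb overlapped an H3K27ac peak. The 2801 H3K4me3 peaks without H3K27ac were short, with a median of 467 bp, and weak, at 1.31 and 2.91 CPM per kb. The 42988 H3K27ac peaks without an H3K4me3 peak had a median length of 1041 bp and levels of 4.11 and 3.88 CPM per kb.

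Promoter pairs were of like size for both marks, and distal pairs were not. In the 11520 promoter pairs (60.0% of all pairs), the median length was 2365 bp for H3K4me3 and 2444 bp for H3K27ac. In the 7687 distal pairs, the H3K4me3 peak had a median of 855 bp and the H3K27ac peak 2205 bp. Peaks of 10 kb or more numbered 1276 for H3K27ac and 35 for H3K4me3 over the whole sets.

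The longest promoter peaks were picked after their values were seen. The longest H3K4me3 promoter peak covered 25.3 kb at PLEC, which encodes the cytoskeletal linker plectin. The next ones lay at NR2F2, an orphan nuclear receptor (17.5 kb), FOSL1, the AP-1 subunit FRA1 (16.7 kb), and EPHA2, an ephrin receptor (16.2 kb). The longest H3K27ac promoter peaks covered 50.1 kb at ACTN4, an actin crosslinker, and 41.2 kb at BCL2L1, an inhibitor of apoptosis. The H3K4me3 peaks paired with these 2 were 7.12 kb and 8.51 kb long. FOSL1 was the only gene in both lists of 6, with 34.9 kb of H3K27ac.

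The longest peaks had a mark in excess at a rate near that of all tested promoter pairs. At FOSL1, H3K4me3 measured 31.1 and 28.7 CPM per kb and H3K27ac 20.6 and 24.5. Over all tested promoter pairs, H3K4me3 was in excess in 9.53% and H3K27ac in 2.94%. Of the 12 longest peaks, 1 was part of an excess pair, near that share. It was the H3K27ac peak at SLC37A2. Its H3K27ac level was 9.03 and 8.78 CPM per kb over 32.6 kb, against 50.6 and 38.5 CPM per kb in an H3K4me3 peak of 1.92 kb (centred log2 difference -1.18 ± 0.29 SE, edgeR adjusted p = 0.000434). Levels are per kb of each peak, and without division by peak length the difference at SLC37A2 was 2.79, the opposite sign. Without H3K4me3 replicate 1 it was -0.98, short of the limit of 1 that an excess needs.

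The levels of the marks rose together across pairs. Pearson's r of the log2 levels was 0.672 over the 19207 pairs, 0.709 over promoter pairs and 0.569 over distal pairs, given as a description, since the peaks share their libraries and local DNA content. Promoter pairs had median H3K4me3 levels of 24.4 and 27.9 CPM per kb and H3K27ac levels of 8.65 and 9.35. Distal pairs had 2.67 and 5.22 for H3K4me3 and 5.55 and 5.99 for H3K27ac. The median log2 difference of H3K27ac minus H3K4me3 was -1.41 at promoters (-1.43 and -1.40 in replicates 1 and 2). At distal pairs it was 0.37, with 0.78 in replicate 1 and 0.04 in replicate 2, so its size depended on the replicate. It also depends on the scaling. Over all pairs the median was -1.03, and -1.53 per mapped read of the study's read table. The sign at distal pairs is therefore not settled.

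**Figure D2:**
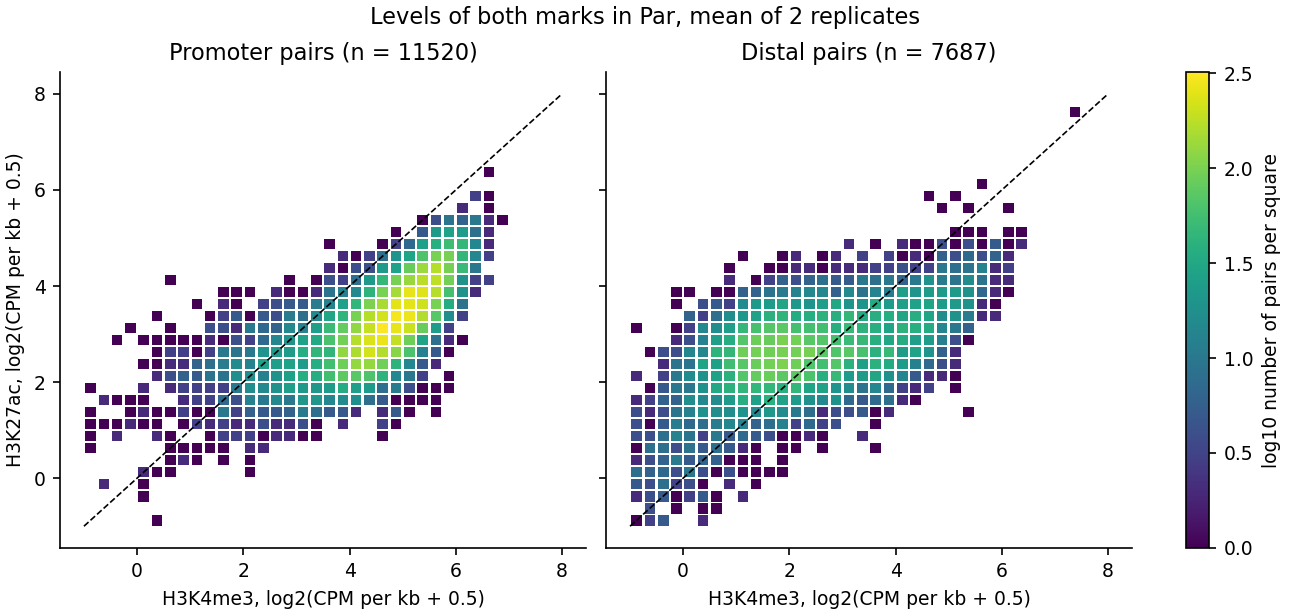
Level of H3K4me3 (horizontal) against H3K27ac (vertical) in the 11520 promoter pairs (left) and 7687 distal pairs (right), both as log2(CPM per kb + 0.5) of the mean of 2 Par replicates. Colour gives the log10 number of pairs in each square and the dashed line marks equal levels. Most promoter pairs lie below the line, and distal pairs spread along a wide band of H3K4me3 levels on both sides of it.

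The 6 strongest promoter peaks of each mark were picked by their level. FKBP5, a co-chaperone of steroid receptors, had the highest H3K4me3 level, 139.8 and 88.8 CPM per kb (chr6:35654804-35657060). It was followed by ESYT2, a tether between endoplasmic reticulum and plasma membrane, with 130.9 and 82.1, and LEMD2, an inner nuclear membrane protein, with 126.6 and 73.9. BRPF3, a scaffold of a histone acetyltransferase complex, had 109.9 and 87.4, and TARBP1, an RNA methyltransferase, 114 and 83.0. SRPK2, a kinase of splicing factors, completed the first 6 with 113.8 and 82.0. Replicate 1 was higher than replicate 2 at all 6.

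H3K27ac was highest at BICRAL, a subunit of a SWI/SNF remodelling complex, with 79.0 and 87.1 CPM per kb (chr6:42748254-42753141). BRPF3 was next, with 51.4 and 74.5, and was the only gene among the first 6 of both marks. The peak shared by PSMA7, a proteasome subunit, and SS18L1 had 47.4 and 71.3. ANP32B, a histone chaperone, had 54.2 and 62.9, NCOA6, a nuclear receptor coactivator, 49.3 and 64.9, and MTCH1, a mitochondrial outer membrane protein, 42.7 and 56.6. Here replicate 2 was the higher one at all 6.

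Of the first 6 peaks, 3 of each mark lay on chromosome 6. The median promoter level differed between chromosomes from 18.7 (X) to 36.1 CPM per kb (20) for H3K4me3, which is 1.93-fold, and from 7.31 (X) to 12.1 (20) for H3K27ac, which is 1.65-fold. The median centred difference of the marks ranged only from -0.42 (chromosome 13) to -0.15 (X). The part of DNA copy number in the levels was not tested. Among the 100 strongest of 11422 tested promoter pairs by each mark, 32 were shared, which is 32% of each list, and among the 1000 strongest, 544 were shared.

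Over all tested promoter pairs, H3K4me3 was in excess in 9.53% and H3K27ac in 2.94%. Of the 11 promoters that these lists of the strongest peaks held, 1 had a mark in excess, near that share. This was ESYT2. Its H3K27ac level was 19.7 and 15.04 CPM per kb, which ranked 1563 among H3K27ac promoter peaks (centred log2 difference -1.48 ± 0.27 SE, edgeR adjusted p = 1.71e-06). With counts not divided by peak length the difference at ESYT2 was 1.16, the opposite sign. BICRAL came close to an excess of H3K27ac, with a centred difference of 0.95 ± 0.27 SE (edgeR adjusted p = 0.00302), under the limit of 1.

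To find pairs with 1 mark in excess, the counts of both peaks were compared with edgeR's quasi-likelihood test on levels per kb, with 2 replicates per mark. H3K4me3 was 2.20-fold higher than H3K27ac at the median pair, a value that depends on both antibodies and on the number of peaks of each mark. The log2 difference was therefore centred on the median tested pair, by subtracting -1.14, and is given as H3K27ac over H3K4me3. Excess means an adjusted p under 0.05 and a centred difference of at least 1 in either direction. Of the 19207 pairs, 18298 had enough counts to be tested and 909 did not.

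H3K27ac was in excess in 3619 tested pairs (19.8%) and H3K4me3 in 1156 (6.32%). The kinds of region were unlike. Of 6876 tested distal pairs, 3283 had H3K27ac in excess (47.7%) and 67 had H3K4me3 in excess (0.974%). Of 11422 tested promoter pairs, 336 had H3K27ac in excess (2.94%) and 1089 had H3K4me3 in excess (9.53%). Exact permutation of single pairs cannot go below p = 0.333 with 2 against 2 libraries, so these calls rest on the spread that edgeR pools over pairs.

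These counts depend on the centring, the peak length, the fold limit and the H3K27ac replicates. Centred on the median promoter pair, a choice made after the data were seen, promoter pairs gave 671 with H3K27ac and 331 with H3K4me3 in excess, so the order of both counts at promoters turned. With no centring, promoter pairs gave 74 and 8659, and all pairs 1565 and 9662. Without division by peak length promoter pairs gave 826 with H3K27ac and 2248 with H3K4me3 in excess, and a log2 limit of 2 gave 134 and 50. Without H3K27ac replicate 1 there were 137 promoter pairs with H3K27ac and 621 with H3K4me3 in excess, and without its replicate 2, 126 and 543. The centring moves all pairs by 1 value and so leaves the order of promoter and distal pairs as it is.

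The promoters with the largest excess of H3K27ac had almost no H3K4me3 in Par. They were ranked by the difference, with 50 or more counts on average required in the higher mark only. Low H3K4me3 therefore goes with the choice. Their H3K4me3 peaks were called on the merged libraries of the lines and need not be present in Par. KISS1 encodes the precursor of kisspeptins and is known as a metastasis suppressor gene. Its H3K4me3 peak of 1731 bp (chr1:204164372-204166102) held 1 and 3 reads, or 0.166 and 0.258 CPM per kb. The H3K27ac peak of 9215 bp around it held 230 and 249 reads, or 5.69 and 7.05 CPM per kb. With the reads of both replicates pooled and without centring, the H3K27ac level was 27.9 times that of H3K4me3, with an exact counting interval of 10.8 to 103. The centred log2 difference at KISS1 was 5.90 ± 0.67 SE (edgeR adjusted p = 2.44e-16). Such intervals of a ratio cover counting error only. SPARC, a secreted glycoprotein of the extracellular matrix, had H3K4me3 at 0.116 and 0.603 CPM per kb and H3K27ac at 7.23 and 9.65. Its centred log2 difference was 5.44 ± 0.59 SE (edgeR adjusted p = 1.47e-17). Both replicates of H3K27ac lay above both of H3K4me3 at these promoters, but only pairs without overlap of the centred levels were named.

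The other promoters of this group, chosen in the same way, had the same order. LY6K, a surface antigen normally found in testis, had 0.633 and 1.42 CPM per kb of H3K4me3 and 22.1 and 12.03 of H3K27ac (centred log2 difference 5.05 ± 0.55 SE, edgeR adjusted p = 1.64e-17). CSF3, the cytokine G-CSF, had 0.423 and 1.07 of H3K4me3 and 5.12 and 8.72 of H3K27ac (4.24 ± 0.42 SE, edgeR adjusted p = 2.05e-21). BTBD19 had 0.379 and 1.28 against 10.8 and 9.77, and TSPOAP1, a binding partner of the translocator protein TSPO, 0.433 and 0.675 against 3.06 and 10.5. The H3K27ac replicates of TSPOAP1 differed by more than those of LY6K, CSF3 or BTBD19. The H3K27ac peak was the longer one, with 15289 bp against 5417 bp at CSF3 and 11064 bp against 1513 bp at BTBD19.

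TMEM244 and MPP4 had the fewest H3K4me3 reads. The TMEM244 pair held 0 and 1 read in an H3K4me3 peak of 583 bp and 131 and 65 in an H3K27ac peak of 9073 bp. Its ratio of pooled levels, not centred, was 15.6 with a counting interval of 2.78 to 621. MPP4, a scaffold protein of photoreceptors, had 0 and 3 reads in 819 bp against 107 and 57 in 7548 bp. Its ratio was 7.37 (2.48 to 36.1), and its call was lost without H3K27ac replicate 1. Of the 336 promoter pairs with H3K27ac in excess, 11 had at most 3 reads in each H3K4me3 library. The others had more, so that the class as a whole had median H3K4me3 levels of 3.09 and 5.70 CPM per kb.

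The promoters with the largest excess of H3K4me3 were mostly pairs with a short flanking H3K27ac peak. At CLUH, a binder of messenger RNAs for mitochondrial proteins, H3K4me3 had 53.5 and 40.3 CPM per kb, and the paired H3K27ac peak 1.70 and 2.23. That H3K27ac peak shared only 126 bp, 4.32% of the H3K4me3 peak, and a second H3K27ac peak lay in the same H3K4me3 peak. With the H3K27ac peaks of the region summed, the centred difference at CLUH was -0.26 in place of -3.44. The same held for DAZAP1 and HNRNPH1, which encode RNA-binding proteins, with -0.16 and -0.66 when summed. PSMG4, TNFRSF21, PDF, PPP1R15B and the start shared by ENSG00000255872 and SHB made up the 8, all with more than 1 H3K27ac peak, and their summed values lay between -1.01 and 0.02.

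Where the H3K27ac peak covered at least 50% of the H3K4me3 peak, a choice made after those values were seen, 970 of the 1088 promoter pairs with H3K4me3 in excess, enough counts and no overlap of the marks remained. In this set the largest differences lay at EPB41L4A, PGS1 and HEY2, the promoters printed above. EPB41L4A, a FERM-domain protein, had 33.0 and 23.1 CPM per kb of H3K4me3 and 2.67 and 1.31 of H3K27ac (centred log2 difference -2.65 ± 0.43 SE, edgeR adjusted p = 3.05e-08). HEY2, a transcriptional repressor of the Notch pathway, had 24.7 and 22.4 of H3K4me3 and 1.89 and 1.65 of H3K27ac (-2.59 ± 0.45 SE, edgeR adjusted p = 3.33e-07). PGS1, an enzyme of cardiolipin synthesis, had 62.5 and 51.0 against 4.44 and 4.01 (-2.61 ± 0.34 SE, edgeR adjusted p = 1.90e-12). Its H3K27ac peak was the longer one, and without division by peak length the difference was -0.68 and no longer passed the test. At these promoters both H3K4me3 libraries lay above both H3K27ac libraries, which the choice of pairs without overlap required.

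The next promoters were ZBTB7C, MAN1C1, SLC37A4, DPH1 and MACROD2. ZBTB7C, a zinc finger protein, had 23.8 and 24.6 CPM per kb of H3K4me3 and 1.32 and 3.18 of H3K27ac. MAN1C1, a mannosidase of the Golgi, had 24.0 and 21.2 against 1.61 and 2.76. SLC37A4, the glucose 6-phosphate transporter, had 29.0 and 38.3 against 2.40 and 4.53, and DPH1, an enzyme of diphthamide synthesis, 26.6 and 33.1 against 2.50 and 3.74. MACROD2, an ADP-ribose hydrolase, had 50.2 and 40.2 against 5.06 and 4.34. Their centred differences lay between -2.31 and -2.12.

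**Figure D3:**
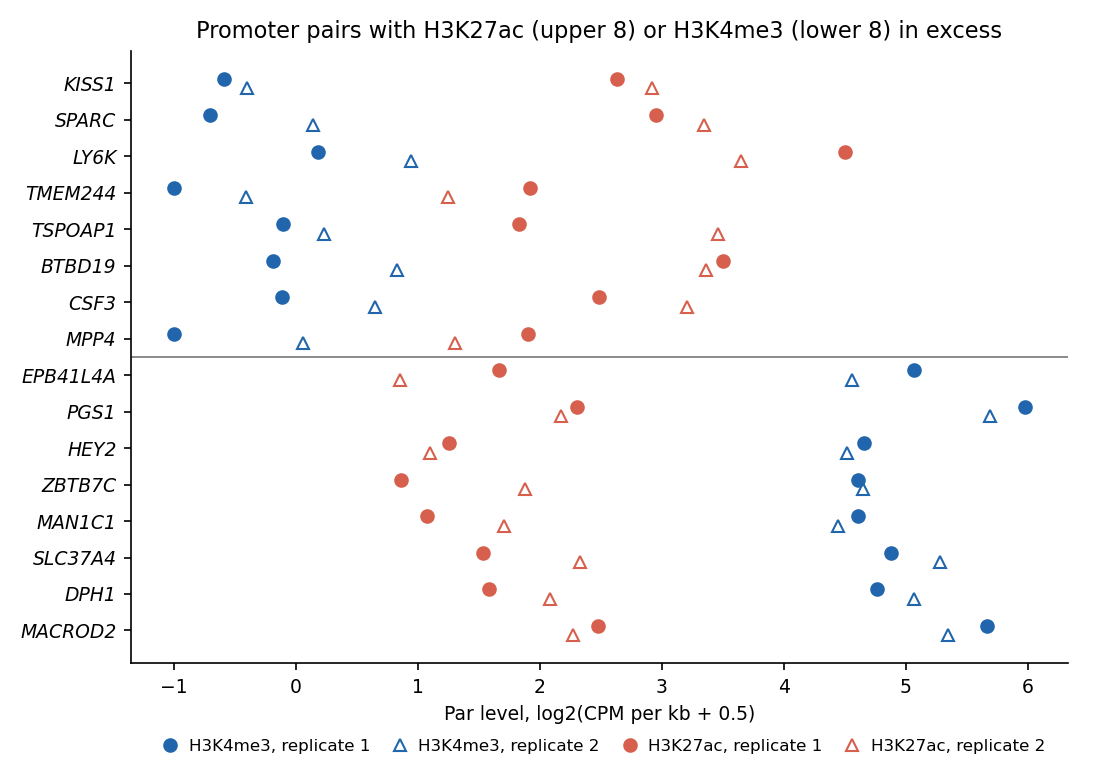
Par levels at 16 promoter pairs, as log2(CPM per kb + 0.5), with H3K4me3 in blue and H3K27ac in red, replicate 1 as filled circles and replicate 2 as open triangles. The upper 8 had the largest excess of H3K27ac and the lower 8 the largest excess of H3K4me3 among pairs whose H3K27ac peak covered at least 50% of the H3K4me3 peak. In each row, both replicates of 1 mark lie apart from both replicates of the other. The choice of pairs required this of the centred levels, so it is no separate support.

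The promoters with H3K27ac in excess were poor in CpG. The median ratio of observed to expected CpG in the H3K4me3 peak was 0.418 (quartiles 0.274 and 0.631) in the 336 pairs with H3K27ac in excess, 0.692 (0.621 and 0.769) in the 1089 with H3K4me3 in excess and 0.675 in the 9997 with neither. The G+C content was 57.1% in both excess classes. Among promoter pairs with a ratio under 0.2, 35 of 61 had H3K27ac in excess (57.4%), and with a ratio of 0.6 to 0.8, 81 of 6642 (1.22%). H3K4me3 was in excess in 5 of 414 pairs with a ratio of 0.2 to 0.4 (1.21%) and in 709 of 6642 at 0.6 to 0.8 (10.7%). The H3K4me3 level was what differed most, from 2.95 and 6.51 CPM per kb under 0.2 to 26.9 and 29.3 at 0.6 to 0.8, while H3K27ac went from 5.00 and 5.75 to 9.19 and 9.51.

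**Figure D4:**
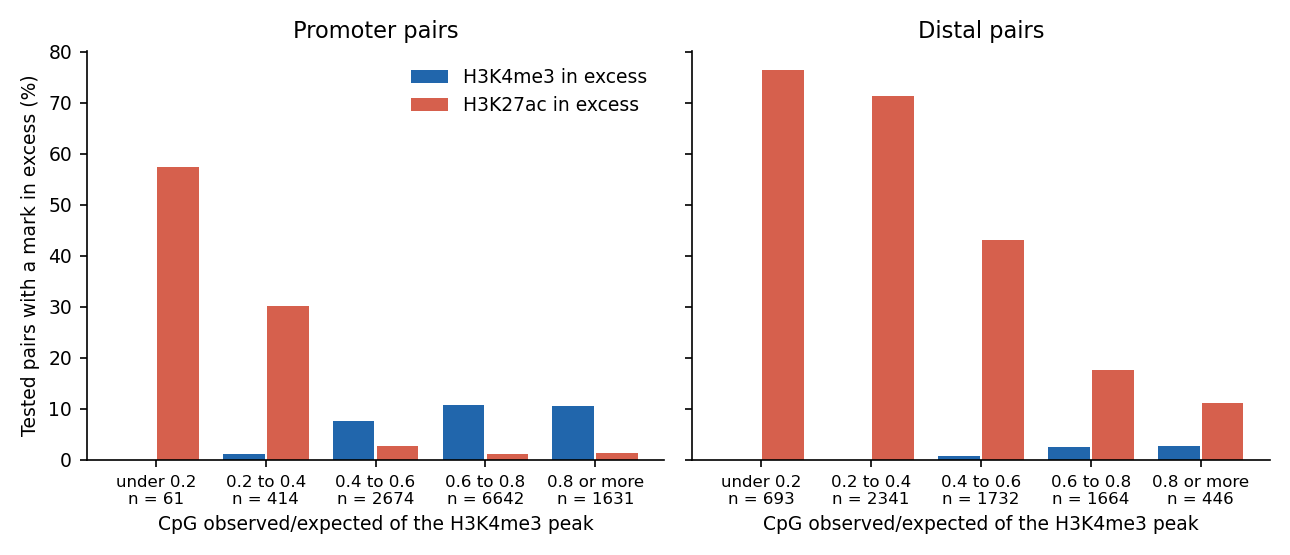
Share of tested pairs with H3K4me3 (blue) or H3K27ac (red) in excess, in percent, by the observed to expected CpG ratio of the H3K4me3 peak, with the number of pairs per class under each pair of bars. In promoter pairs (left) the share with H3K27ac in excess falls from 57.4% to 1.29%, and in distal pairs (right) from 76.3% to 11.2%.

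Short motifs differed in frequency between these promoters. In the window from 250 bases before to 50 after the start, TATAAA stood in the 50 bases before the start, on the gene's strand, in 26 of 362 genes with H3K27ac in excess (7.18%). It stood there in 14 of 1174 genes with H3K4me3 in excess (1.19%) and in 824 of all 19819 (4.16%). The AP-1 heptamer, TGACTCA or TGAGTCA on either strand, stood in 11.3% of the windows of genes with H3K27ac in excess, in 1.36% with H3K4me3 in excess and in 3.57% of all. CCAAT or its complement ATTGG stood in 27.3%, 40.4% and 36.0% of the same windows. Among the 11214 paired genes with neither mark in excess, TATAAA stood in 1.74%, the AP-1 heptamer in 2.44% and CCAAT or ATTGG in 35.4%. For TATAAA and AP-1, genes with H3K4me3 in excess were nearer to these shares than to those of all genes. The AP-1 heptamer also stood in 8.16% of the windows at starts with an H3K27ac peak alone and in 5.21% at starts with neither mark. All of these are shares of matching letters, not of bound sites.

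H3K27ac in excess was most frequent where the H3K4me3 promoter peak was short. For the 350 tested promoter pairs with an H3K4me3 peak under 1 kb, H3K27ac was in excess in 21.7%, against 3.36% at 1 to 2 kb, 1.72% at 2 to 4 kb and 2.68% at 4 kb or more. The median H3K4me3 level was 4.70 and 7.22 CPM per kb in the shortest class and 28.7 and 28.1 in the longest. H3K27ac levels went from 4.66 and 5.28 to 10.7 and 11.3. H3K4me3 was in excess in 0.571% of the shortest class and in 8.18% to 10.1% of the others.

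In distal pairs with H3K27ac in excess, a long H3K27ac peak contained a short and weak H3K4me3 peak. The median lengths were 4285 bp and 787 bp, and the median share of the H3K4me3 peak covered by H3K27ac was 100%. H3K4me3 levels were 1.40 and 3.40 CPM per kb and H3K27ac levels 6.53 and 6.96, and 171 of the 3283 pairs had at most 3 reads in each H3K4me3 library. They lay a median of 40.3 kb from a protein-coding start. The AP-1 heptamer stood in the central 300 bases of the H3K4me3 peak in 16.1% of them, against 5.85% of all 22572 H3K4me3 peaks. In the central 300 bases of the H3K27ac peak it stood in 12.9% of them, against 11.5% of the 42212 H3K27ac peaks that were distal and had no H3K4me3. Of the 67 distal pairs with H3K4me3 in excess, 1 held it. Their CpG ratio, 0.693, was that of promoters, while that of distal pairs with H3K27ac in excess was 0.324.

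The distal H3K27ac peaks with the highest levels lay beside centromere gaps or in other pericentromeric sequence. The strongest was at chr1:121484295-121485490, next to a gap of the assembly, with 197.7 and 230.9 CPM per kb of H3K27ac and 208.4 and 127.3 of H3K4me3. The second, at chr6:58776411-58779071, lay 1.10 kb from a gap and had no H3K4me3 peak. The other 2, on chromosomes 7 and 10, also lay in such regions, where reads from repeats are hard to place. Over 1 Mb from gaps, a limit set after the data were seen, the strongest region lay 74.9 kb from RD3 (chr1:211589194-211590648). It had 48.6 and 54.2 CPM per kb of H3K27ac and 42.1 and 37.9 of H3K4me3 (centred log2 difference 1.5 ± 0.34 SE, edgeR adjusted p = 0.000112). Next came regions near SPAG6, SRSF3 and KRBA1, of which that near SRSF3 had no H3K4me3 partner over its 6082 bp.

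Of 19819 protein-coding starts, 12843 (64.8%) had a pair of both marks within 2 kb. H3K4me3 alone stood at 545 (2.75%), H3K27ac alone at 613 (3.09%), both without a pair at 133 and neither at 5685 (28.7%). The median CpG ratio of the promoter window was 0.281 at starts with H3K27ac alone, near the 0.290 at starts with neither mark, and 0.695 at starts with H3K4me3 alone. TATAAA stood in 9.30%, 8.65% and 4.95% of these windows.

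The gene lists are set beside all 12744 tested genes, of which 9.20% had H3K4me3 and 2.84% H3K27ac in excess, with a median centred difference of -0.34. All medians would be 1.14 lower without centring, so their sign has meaning only against the median pair. Without division by peak length, the calls given below at RPS25, ZEB1, ETV5, KDM5B and SETD1B were lost. Centred on the median promoter pair, those with H3K4me3 in excess at ETV5 (-0.81), ZEB1 (-0.76), RPL27A (-0.72), RPS25 (-0.67) and GAD1 (-0.84) were lost, and so was the one at SLC37A2 (-0.85) given above. With no centring, those with H3K27ac in excess at MUC1 (0.60), CLDN7 (0.29), ZNF114 (0.71), SETD1B (0.06), H4C3 (0.20), H2BC10 (0.81), SYP (0.85) and the region near RD3 (0.36) were lost, and ZNF528 turned (-0.03). Genes that share a promoter share a pair and a value. The lists were chosen with results of these data known, and no list was tested as a set.

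The cytosolic and mitochondrial ribosomal protein genes, which every cell transcribes, had pairs at nearly all starts. Of 77 cytosolic genes 76 were tested, with a median of -0.25, and 2 had H3K4me3 in excess, RPL27A and RPS25. RPL27A had 42.4 and 43.7 CPM per kb of H3K4me3 and 9.76 and 9.08 of H3K27ac (centred log2 difference -1.06 ± 0.30 SE, edgeR adjusted p = 0.00261). This call was lost without H3K27ac replicate 2, and the sign turned, to 0.29, without division by peak length. The call at RPS25 was lost without H3K4me3 replicate 2 or H3K27ac replicate 1, and with the replicate number as a block (-0.99). Of 77 tested mitochondrial genes, 8 had H3K4me3 in excess (10.4%), with a median of -0.56, the lowest of the lists with 10 or more genes tested. MRPS30 (-1.48 ± 0.40 SE) and MRPS36 (-1.47 ± 0.43 SE) led these, and both calls were lost without H3K27ac replicate 2.

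Luminal epithelial genes, which define another breast cell type, had low H3K4me3 at their 12 tested promoters, with medians of 9.73 and 12.8 CPM per kb against 24.7 and 28.5 over all genes. Low H3K4me3 was not particular to this list. Cytokine and NF-kB target genes had medians of 13.0 and 15.2, developmental transcription factors 15.1 and 16.5 and replication-dependent histone genes 13.0 and 18.8. The H3K27ac medians of the luminal genes, 6.51 and 7.12, were nearer to the 8.81 and 9.55 over all genes. KRT19, a keratin, had 34.8 and 30.7 of H3K4me3, CLDN4, a claudin, 15.97 and 26.2, and EPCAM, an adhesion molecule, 15.2 and 11.3 of H3K27ac. H3K27ac was in excess at 3 of the 12. GRHL2, an epithelial transcription factor, had 4.47 and 4.71 of H3K4me3 and 14.9 and 9.28 of H3K27ac (centred log2 difference 2.53 ± 0.50 SE, edgeR adjusted p = 8.53e-06), a call that was lost without H3K27ac replicate 1. MUC1, a membrane mucin, had 10.3 and 13.8 against 15.4 and 21.4 (1.74 ± 0.32 SE, edgeR adjusted p = 1.96e-06). The third, CLDN7, a tight junction claudin outside the naming rule, had 8.82 and 10.7 against 10.5 and 13.5. The hormone receptor ESR1 had 4.99 and 5.18 of H3K4me3 and 2.98 and 1.24 of H3K27ac, PGR had H3K4me3 alone and the luminal factor GATA3 H3K27ac alone.

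Genes of the claudin-low or mesenchymal list, which also held KRT8 and KRT18, had H3K4me3 medians of 17.7 and 25.4 CPM per kb, below the 24.7 and 28.5 over all genes. Their H3K27ac medians, 10.0 and 10.7, were above the 8.81 and 9.55 over all genes. Of 22 tested promoters, 1 had a mark in excess. It was ZEB1, a repressor of epithelial genes, with 66.5 and 61.6 CPM per kb of H3K4me3 and 10.7 and 16.6 of H3K27ac (centred log2 difference -1.10 ± 0.29 SE, edgeR adjusted p = 0.00124). That difference was -0.91, under the limit, without H3K27ac replicate 1. AXL, a receptor kinase, stood at the other end of the list, with 0.92 ± 0.28 SE.

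Cytokine and NF-kB target genes held the largest list values. Besides CSF3, IL1B, which encodes interleukin 1 beta, had H3K27ac in excess. Its H3K4me3 peak held 0 and 1 read and its H3K27ac peak 23 and 20. The ratio of pooled levels, not centred, was 10.5 with a counting interval of 1.78 to 423. Leaving out either H3K27ac replicate lost the call at IL1B, and so did DESeq2. The interleukin gene IL1A, the IL-6 family cytokine LIF and TNF had H3K27ac alone. IL6 had 6.16 and 10.0 CPM per kb of H3K4me3 and 4.83 and 5.55 of H3K27ac, and the NF-kB inhibitor NFKBIA had 44.9 and 36.2 against 21.7 and 24.6. Neither was in excess for a mark.

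Of 25 genes for AP-1, RUNX, ETS and TEAD factors, 24 had a pair and 23 were tested. The median was 0.00, and 1 was in excess, ETV5, an ETS factor, with 33.7 and 39.2 CPM per kb of H3K4me3 and 7.43 and 7.61 of H3K27ac (centred log2 difference -1.14 ± 0.30 SE, edgeR adjusted p = 0.00148). FOSL1 (0.73 ± 0.26 SE) and RUNX2 (0.96 ± 0.58 SE) lay at the upper end and JUN (-0.93 ± 0.30 SE) near the lower end. ETS1 had H3K4me3 alone, at 0 and 1.82 CPM per kb.

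All 24 writers, readers and erasers of the marks had a pair. H3K4me3 was in excess at TAF3, a TFIID subunit that reads this mark, with 30.6 and 42.3 CPM per kb against 3.83 and 5.16 of H3K27ac (-1.89 ± 0.40 SE, edgeR adjusted p = 4.39e-05). It was also in excess at KDM5B, a demethylase that removes it, with 64.6 and 55.0 against 10.2 and 9.01 (-1.50 ± 0.31 SE, edgeR adjusted p = 1.80e-05). H3K27ac was in excess at SETD1B, an H3K4 methyltransferase, with 19.04 and 31.2 CPM per kb against 22.7 and 25.3 of H3K4me3 (1.20 ± 0.28 SE, edgeR adjusted p = 0.000248). Without H3K27ac replicate 2 the SETD1B difference was 0.85, under the limit. EP300, which encodes p300, had 0.90 ± 0.30 SE.

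Replication-dependent histone genes had a median of 0.31 over 28 tested genes, which rest on only 15 pairs. H3K27ac was in excess at 6 of the 28 genes (21.4%), a count in which genes that share a pair are each counted. H4C3 had 5.40 and 8.78 CPM per kb of H3K4me3 and 8.65 and 7.89 of H3K27ac (centred log2 difference 1.33 ± 0.44 SE, edgeR adjusted p = 0.0118). This call was lost without H3K4me3 replicate 1 or either H3K27ac replicate. H2BC10 had 1.41 and 3.67 against 4.68 and 4.95 (1.93 ± 0.74 SE, edgeR adjusted p = 0.0335), and it too was lost without H3K4me3 replicate 1 or either H3K27ac replicate, and with DESeq2 (2.01). Clustered histone genes are near copies of each other, so reads may be split between them.

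Developmental transcription factors mostly lacked both marks, 36 of 60. The 17 tested ones had a median of -0.13. Of 206 tested zinc finger genes on chromosome 19, 18 had H3K4me3 in excess (8.74%), near the share over all genes, and 2 had H3K27ac in excess. These were ZNF114, with 11.3 and 15.6 CPM per kb of H3K4me3 and 19 and 25.4 of H3K27ac (1.84 ± 0.37 SE, edgeR adjusted p = 1.33e-05), and ZNF528 (1.10 ± 0.34 SE, edgeR adjusted p = 0.00682). ZNF528 fell under the limit without H3K4me3 replicate 1 or H3K27ac replicate 1. ZNF571 and ZNF540, which share 1 pair, lay lowest at -1.59 ± 0.52 SE, a call lost without H3K27ac replicate 1. Of the 8 neuronal and glial genes, 4 were tested, with H3K27ac in excess at SYP (1.97 ± 0.73 SE) and H3K4me3 at GAD1 (-1.17 ± 0.47 SE). Both calls were lost by DESeq2. SYP was also lost without H3K4me3 replicate 1 or H3K27ac replicate 2, and GAD1 without H3K4me3 replicate 2 or either H3K27ac replicate. The 1 leukocyte gene with a pair, CD14, had 4.75 and 10.9 CPM per kb of H3K4me3 and 1.26 and 4.33 of H3K27ac.

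**Figure D5:**
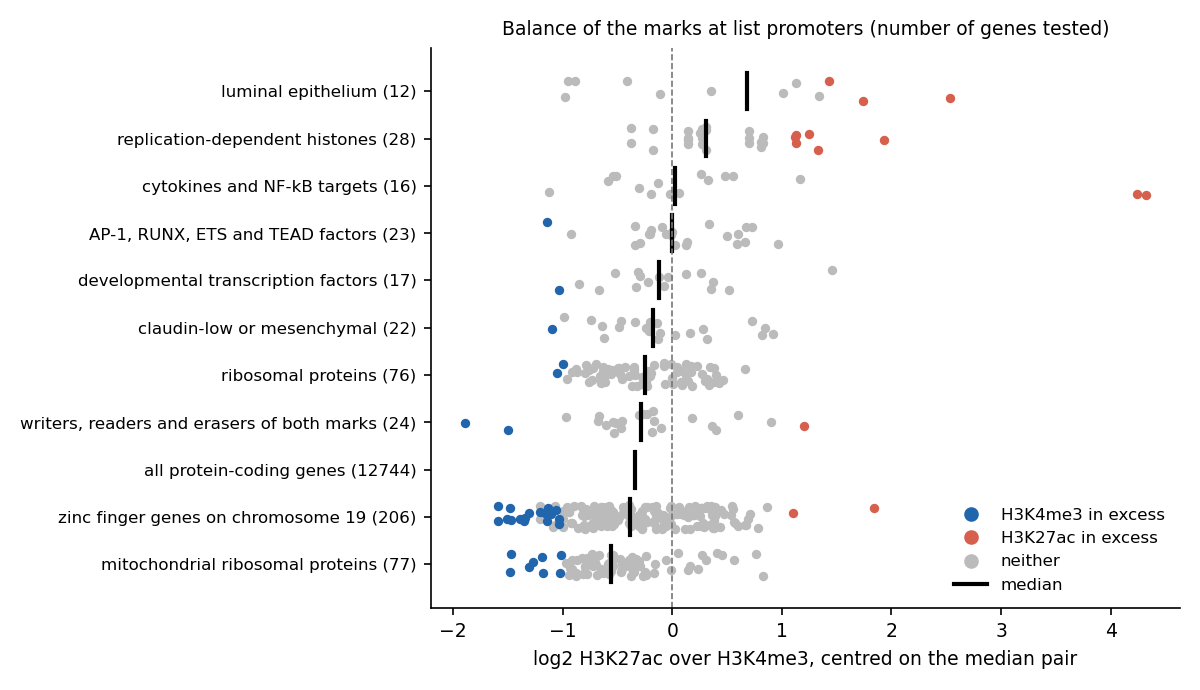
Centred log2 difference of H3K27ac over H3K4me3 at the promoters of 10 gene lists, with 1 point per tested gene, blue for H3K4me3 in excess, red for H3K27ac in excess and grey for neither. Black bars are medians, the row of all protein-coding genes shows its median alone, and lists with fewer than 10 tested genes are left out. By their medians, luminal and histone genes lie farthest to the right and mitochondrial ribosomal protein genes farthest to the left.

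The same pairs were read in LM2 and BrM2, with libraries of their own. Of 331 promoter pairs with H3K27ac in excess in Par and tested in LM2, 233 had it in LM2 too, 70.4% of the Par list and 66.0% of the LM2 list, against 3.10% of tested promoter pairs called in LM2. In BrM2 the shared pairs were 182, 56.9% of the Par list and 60.9% of the BrM2 list, against 2.63%. No pair in excess for 1 mark in Par was in excess for the other mark in LM2 or BrM2 (0 pairs). The centred differences of the lines correlated across tested promoter pairs with r = 0.841 (LM2, n = 11385) and 0.819 (BrM2, n = 11364), as a description of lines that share peaks, antibodies and origin.

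Single promoters were further apart. Those named here were picked for the largest differences in Par, so smaller values in LM2 and BrM2 go with the choice. At KISS1 the centred difference was 5.90 in Par, 2.59 in LM2 and 1.51 in BrM2, all past the threshold. At SPARC it was 5.44 in Par, 0.25 in LM2 (edgeR adjusted p = 0.547) and 2.01 in BrM2. At LY6K the values were 5.05, 3.81 and 3.77. CSF3 had 4.24, 1.43 and 5.30, so it was larger in BrM2 than in Par. TSPOAP1 had 4.61, 4.29 and 0.54, and was not in excess in BrM2. The 8 promoters with H3K4me3 in excess plotted above had it in LM2 and BrM2 as well. EPB41L4A had -2.65 in Par, -2.46 in LM2 and -2.04 in BrM2, and ZBTB7C -2.31, -2.00 and -2.54. The differences between lines were not tested.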

How the data were processed

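H3K4me3 and H3K27ac were measured by ChIP-seq (antibodies ab8580 and ab4729 in the study's methods, which give a longer fixation than the labels). The authors aligned reads to hg19 with Bowtie2 2.3.4.3, handled duplicates with Picard 2.18.21, merged the libraries of each mark and called broad consensus peaks with MACS2 2.1.2. Versions are from the submitters' processing notes. The deposited values are raw counts, obtained with featureCounts 1.6.0 after 3′ extension of reads by 150 bases, with no scaling or input subtraction. Columns of the tables not matched to a sample numbered 0. Reads per library set the precision, and Par totals are given above.

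Groups came from the sample titles. The pair test used edgeR 4.0.16 (glmQLFit, glmQLFTest, filterByExpr with a minimum count of 10, Benjamini-Hochberg over all tested pairs, 2 residual degrees of freedom) with offsets for the library total in peaks and peak length. It was tested on simulated data. The alternatives were DESeq2 1.42.0, TMM, no centring, no length, no filter, other pairings, other fold limits, a replicate block and leaving out each library. Starts were those of canonical protein-coding transcripts in GENCODE 44 mapped to GRCh37, and sequences came from GRCh37. CpG ratios are the observed CpG count over that expected from C and G. Named were the 6 strongest promoter peaks of each mark, the 8 largest differences each way among excess promoter pairs with 50 or more counts on average in the higher mark and no overlap between the marks, the 4 strongest distal H3K27ac peaks, and the 2 highest and 2 lowest genes of each list. Members, lists and tests were chosen with earlier results of these data known. Replicate numbers gave only 2 pairs and are not stated to mark a shared batch. Some genes that the naming rule picked are not reported here.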

Additional observations from a re-analysis of the deposited data

How the results depend on the processing

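Counts of pairs with H3K4me3 and with H3K27ac in excess (1156 and 3619 over all pairs, 1089 and 336 at promoters) moved by at most 1.5 times with TMM, DESeq2, no filter, other pairings of peaks and no fold limit. They moved to 9662, 1565, 8659 and 74 with no centring, to 2529, 5488, 2248 and 826 without peak length, and to 351, 4669 (within 1.5 times), 331 and 671 centred on the median promoter pair, added after seeing the data. A fold limit of 2 gave 53, 2500, 50 and 134. Leaving out 1 library gave 576 to 1729, 1494 to 3971, 543 to 1623 and 126 to 431. The low ends came from the H3K27ac libraries, and the lone library left is then assumed to vary like the others.

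With the replicate block the counts were 1326, 3884, 1237 and 383. Deviations of same-numbered libraries correlated with r = 0.133 between the marks, and 2 pairs do not establish a pairing. The median log2 difference over pairs (-1.03) was -1.53 per mapped read of the study's read table, -0.92 without peak length and -1.10 to -0.90 with 1 library left out. The correlation of the marks (0.672) was 0.476 without peak length and 0.630 to 0.658 with 1 library left out, and it stayed within the replicate spread with other pseudocounts.

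The share of peaks at a start was 18.9%, 24.3% and 24.4% for H3K27ac and 52.4%, 56.8% and 59.2% for H3K4me3 with a limit of 1 kb, a limit of 5 kb and the starts of all protein-coding transcripts. Of 509 alternative values at 51 named regions, 444 kept direction and call, 61 kept direction but not the call and 4 turned. The latter were RPL27A (0.29), ESYT2 (1.16) and SLC37A2 (2.79) without peak length and ZNF528 (-0.033) with no centring. Weak H3K4me3 peaks with few reads limit the ratios at promoters such as TMEM244.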
